A study of Mus musculus with 2 samples.

Results

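The miR-26 family of the mouse is made from 3 hairpin genes, Mir26b, Mir26a-1 and Mir26a-2, each inside a gene for a small C-terminal domain phosphatase. Members were chosen by their identifiers and not by a cut on measured values, though earlier results of these data were known. All 3 were found among the 1973 microRNA genes counted. They were measured in hindbrain of B6NCrl embryos at embryonic day 16.5, with males and females pooled. There were 2 biological replicates and 1 condition, so the data allow no comparison between treatments, ages or tissues. Replicate 2 was a pool of 37 embryos per the labels, and the number behind replicate 1 is not given in the sources used here. The host messenger RNAs were not measured, because the libraries hold RNA below 30 nt. In bulk tissue, fewer cells of a type and less RNA per cell cannot be told apart.

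MicroRNAs are cut from hairpins and guide silencing complexes to messenger RNAs, mainly through the seed, bases 2 to 8 of the mature strand. The host genes Ctdsp1, Ctdspl and Ctdsp2 encode phosphatases that act on RNA polymerase II and serve as cofactors of REST, a repressor of neuronal genes outside neurons. In zebrafish, miR-26b represses its host ctdsp2 as neural progenitors differentiate.

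The mature sequences are shown first because they decide which reads can be told apart. They were taken from RefSeq on GRCm38.p6, and capitals mark the seed.
miR-26b-5p: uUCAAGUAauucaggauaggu
miR-26a-5p, from both Mir26a-1 and Mir26a-2: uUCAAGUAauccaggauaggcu
miR-26b-3p: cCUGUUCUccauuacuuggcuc
miR-26a-1-3p: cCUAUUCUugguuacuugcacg
miR-26a-2-3p: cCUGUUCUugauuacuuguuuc

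The 5p arms share the seed UCAAGUA, which no mature microRNA of other genes among the 1738 in the RefSeq table carries. Mir26a-1 and Mir26a-2 make the same miR-26a-5p. Relative to it, miR-26b-5p carries C11U and C21U, counted from 1 at the 5′ end, and is 21 instead of 22 bases long. Both changes lie outside the seed. The 3p arms are all different. From miR-26a-1-3p to miR-26a-2-3p there are 6 substitutions, 1 of them (A4G) in the seed. The seed CUGUUCU is thus shared by miR-26a-2-3p and miR-26b-3p, and also occurs in Mir6932 and Mir7039.

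The hairpins are printed below 5′ to 3′, with the mature arms in capitals, to show how far the identity runs beyond the arms.
Mir26b: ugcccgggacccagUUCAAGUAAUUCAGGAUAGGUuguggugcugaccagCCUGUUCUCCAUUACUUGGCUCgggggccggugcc
Mir26a-1: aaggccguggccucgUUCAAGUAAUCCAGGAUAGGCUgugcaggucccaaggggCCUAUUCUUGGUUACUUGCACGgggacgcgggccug
Mir26a-2: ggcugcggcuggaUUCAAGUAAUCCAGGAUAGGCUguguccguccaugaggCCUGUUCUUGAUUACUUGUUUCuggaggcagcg

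The Mir26a-1 and Mir26a-2 hairpins were 72.5% identical in a global alignment, with an unbroken run of 25 shared bases over the 5p arm. Mir26b was 68.5% identical to Mir26a-1 and 65.9% to Mir26a-2, with no shared run above 11 bases. Of the 22-base windows of each hairpin, 0 of 64 in Mir26b, 4 of 69 in Mir26a-1 and 4 of 63 in Mir26a-2 occurred in spliced GENCODE M21 transcripts of genes other than the host. Those 4 are the windows that the Mir26a hairpins share with each other, and 1 of them is miR-26a-5p itself. A read of the whole miR-26a-5p strand therefore fits both loci. The mature strands of Mir26b and the 3p strands of Mir26a-1 and Mir26a-2 each occurred in transcripts of 1 gene. The rest of the genome was not searched. The deposited tables keep reads that fit several places only as a total, 3802165 in replicate 1 and 3410352 in replicate 2, or 74.6 and 76.5 for every 100 sense counts. How many of them are miR-26a-5p is not known from these tables, nor do the tables separate the arms of a hairpin.

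The hairpins are similar in predicted folding. RNAfold gave minimum free energies of -43.5 kcal/mol for Mir26b, -49.4 kcal/mol for Mir26a-1 and -44.5 kcal/mol for Mir26a-2 at 37 °C, with 32 to 34 base pairs. Their lengths were 85, 90 and 84 bases. The GC content was lowest in Mir26a-2, at 53.6%, against 58.8% in Mir26b.

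All 3 hairpins lie on the plus strand, in the sense of their hosts, and in the same place of the gene structure (mm10, GENCODE M21). In each host the intron that holds the hairpin follows an exon of 57 bases and precedes an exon of 93 bases. Mir26b (ENSMUSG00000065468.1) lies at chr1:74394310-74394394 in intron 4 of a Ctdsp1 transcript of 7 exons, an intron of 564 bases. Mir26a-1 (ENSMUSG00000065513.1) lies at chr9:119031796-119031885 in intron 5 of a Ctdspl transcript of 8 exons, which spans 3283 bases. Mir26a-2 (ENSMUSG00000065430.1) lies at chr10:126995530-126995613 in intron 5 of a Ctdsp2 transcript of 8 exons, which spans 1946 bases. The intron sizes differ widely, and so does the distance to the host's first base, at 2801 bases for Mir26b, 105343 bases for Mir26a-1 and 16813 bases for Mir26a-2. Mir26b and Mir26a-1 sit near the middle of their introns, while Mir26a-2 begins 1621 bases in and ends 241 bases before the next exon. Mir26a-2 also touches an annotated start: the first exon of a Ctdsp2 transcript of 3 exons begins at the last base of the hairpin, so the hairpin overlaps that exon by 1 base. RefSeq lists another start of Ctdsp2 nearby, and its promoter window from 126995363 to 126995662 on chromosome 10 holds the whole hairpin.

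**Figure D1:**
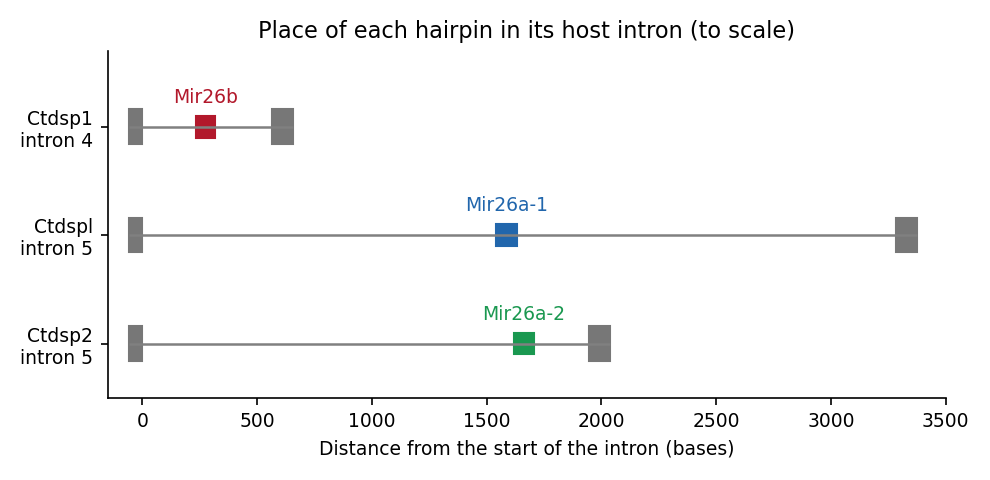
The horizontal axis gives the distance in bases from the start of the host intron, drawn to scale, with exons in grey and each hairpin in colour. All 3 introns lie between exons of 57 and 93 bases, and the introns span 564 bases in Ctdsp1, 3283 in Ctdspl and 1946 in Ctdsp2.

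By assigned counts, Mir26b was one of the most abundant microRNA genes of the hindbrain, while few counts could be assigned to the Mir26a hairpins. Reads that fit several places do not enter this ranking. Mir26b had 82061 sense counts in replicate 1 and 61642 in replicate 2, or 16099 CPM (counts per 1000000 sense counts; exact binomial 95% interval 15990 to 16209) and 13818 CPM (13710 to 13927). It held position 14 in each library, with a mean of 14959 ± 1613 CPM (SD, n = 2).

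Mir26a-2 had 107 and 103 counts in replicates 1 and 2, or 21.0 CPM (17.2 to 25.4) and 23.1 CPM (18.8 to 28.0). Its mean was 22.04 ± 1.48 CPM (SD, n = 2), position 282 of all genes. Mir26a-1 had 25 and 24 counts, or 4.90 CPM (3.17 to 7.24) and 5.38 CPM (3.45 to 8.01). Its mean was 5.14 ± 0.336 CPM (SD, n = 2), position 340. All 3 had at least 10 counts in each library, the minimum used here for detection, which 385 of the 1973 genes reached. The Mir26a levels also lay above the limit for a count of 0, taken as 3 counts. That limit equals 0.589 CPM for replicate 1 and 0.673 CPM for replicate 2. No member had a read on the opposite strand in either library. Intervals cover counting error only: without molecular identifiers, PCR copies count as separate reads.

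**Figure D2:**
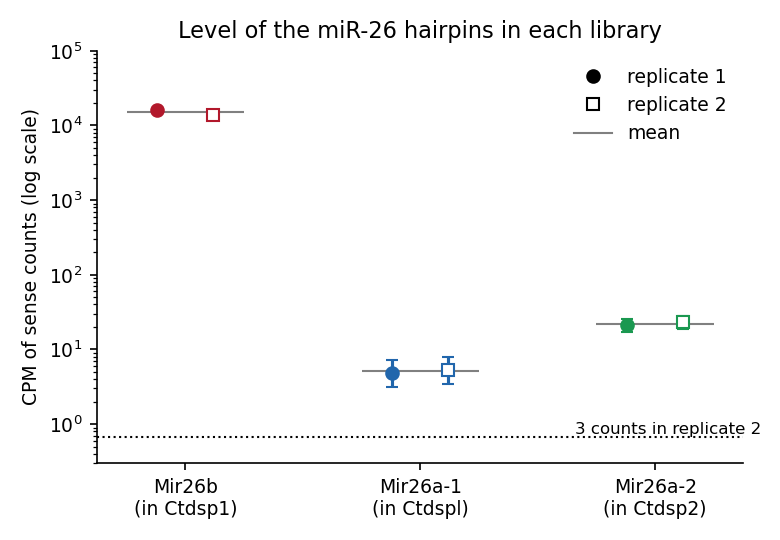
CPM of sense counts on a log scale for each hairpin, with replicate 1 filled, replicate 2 open, exact binomial 95% intervals as bars and the mean as a grey line. Mir26b sits near 14959 CPM, Mir26a-1 near 5.14 CPM and Mir26a-2 near 22.04 CPM, all above the dotted line at 3 counts of replicate 2.

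The family held 1.61% of sense counts in replicate 1 (1.60% to 1.62%) and 1.38% in replicate 2 (1.37% to 1.40%), a mean of 1.499% ± 0.161 (SD, n = 2). Mir26b made up 99.8% of it in each library. Reads that fit both Mir26a loci lie outside the gene counts, so this is a share of assigned reads only. How many such reads were left out is not known from these tables.

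The order Mir26b, Mir26a-2, Mir26a-1 was the same in both libraries. A ratio was called different when its sign matched between libraries and its mean exceeded 2 SD. With 2 libraries the smallest p of an exact sign-flip test is 0.5, so none is given. Mir26b exceeded Mir26a-1 by a log2 ratio of 11.50 ± 0.25 (SD, n = 2), with 3282-fold in replicate 1 and 2568-fold in replicate 2. It exceeded Mir26a-2 by 9.40 ± 0.25, with 767-fold and 598-fold. Both ratios passed the rule. They compare assigned counts of hairpins, and how far the reads that fit both Mir26a loci account for them was not tested. Mir26a-1 over Mir26a-2 also passed, at -2.10 ± 0.0028 on the log2 scale (SD, n = 2). With 24 and 25 counts for Mir26a-1, the exact binomial 95% interval of that ratio was wider than the spread of the libraries, -2.79 to -1.46 in replicate 1 and -2.81 to -1.45 in replicate 2. Small RNA reads cover mature strands and not the length of a gene, so levels were not divided by length. Per base of hairpin the log2 ratios were 11.59, 9.39 and -2.20.

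The neighbours of each member in the ranking give its level a scale, where likeness is closeness in mean CPM over 2 libraries. Above Mir26b came Mir149 at 19035 ± 935 CPM and Mir30e at 16922 ± 2024 CPM, and below it Mir181c at 12418 ± 368 CPM and Mir17 at 11640 ± 2498 CPM (SD, n = 2 each). The range of the libraries overlapped that of Mir26b for Mir30e and not for the other three. Mir26a-2 lay between Mir544 at 22.6 ± 0.241 CPM and Mir18b at 21.0 ± 5.27 CPM, with Mir3093 and Mir669e next to these. Of these 4 neighbours, Mir3093 alone had a range that did not overlap that of Mir26a-2. Mir26a-1 had the same counts as Mir3076, 25 and 24, and its range also overlapped those of Mir7083, Mir215 and Mir669h, so its place among them is not resolved.

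**Figure D3:**
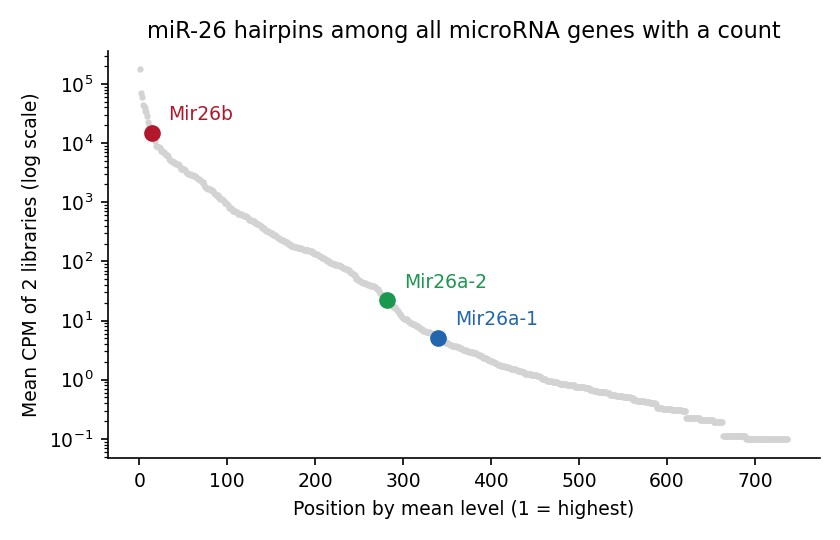
Mean CPM of 2 libraries on a log scale against the position of each microRNA gene with a count, in grey, with the miR-26 hairpins in colour. Mir26b lies at position 14, Mir26a-2 at 282 and Mir26a-1 at 340.

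To compare the libraries, a two-sided exact binomial test was run with totals scaled by TMM, on the 401 genes whose counts summed to 20 or more. This test allows for counting noise and compares libraries, not conditions. Mir26b was 1.11-fold higher in replicate 1 (log2 ratio 0.16, 95% interval 0.14 to 0.17, exact binomial test with Benjamini-Hochberg adjustment over 401 genes, adjusted p = 3.18e-90). Of all genes tested, 46.4% passed in either direction and 24.4% were higher in replicate 1, so 1 of 3 members in this direction is near the background. When totals were left unscaled, 131 genes were higher in replicate 1 and 62 in replicate 2, against 98 and 88. In an edgeR exact test with an assumed biological coefficient of variation of 10%, 1.75% of genes passed, and 0.748% did at the 16.3% estimated from these libraries. Mir26b passed neither, with adjusted p of 0.975 and 1 in those edgeR exact tests. The 16.3% was estimated with both libraries taken as 1 group, so the differences under test also raised it.

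Mir26a-1 and Mir26a-2 did not pass, with log2 ratios of -0.20 (95% interval -1.07 to 0.67, adjusted p = 0.786) and -0.20 (-0.61 to 0.20, adjusted p = 0.479) in the exact binomial test. At these counts a difference between the pools of the size seen for Mir26b was not detectable for either of them.

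**Figure D4:**
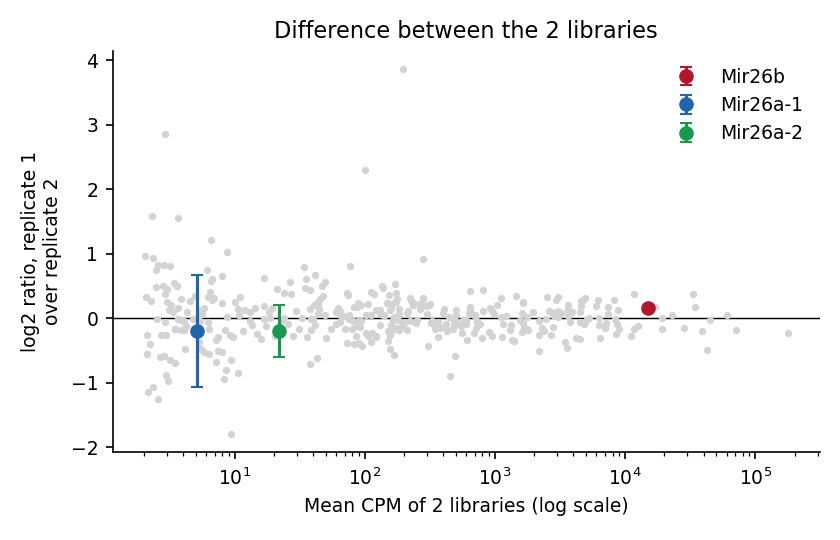
The log2 ratio of replicate 1 over replicate 2 after TMM scaling against mean CPM on a log scale for the 401 genes tested, with exact binomial 95% intervals for the miR-26 hairpins. Mir26b lies at 0.16 with a narrow interval, and the intervals of Mir26a-1 and Mir26a-2 include 0.

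Depth and tissue were as follows. Sense counts on microRNA genes totalled 5097205 in replicate 1 and 4460836 in replicate 2. The neural Mir137 reached 9157 and 7199 CPM in replicates 1 and 2, against 41.0 and 41.9 CPM for Mir122 of hepatocytes. Another neural hairpin, Mir124a-1, lay below Mir122, with 4.32 and 2.91 CPM. Reads that fit several places are outside these counts, and whether the Mir124a hairpins share a mature strand was not examined. Mir206 of skeletal muscle had 370 and 24.2 CPM, so it was higher in the replicate that also had more Mir26b. Its part in the Mir26b difference was not tested.

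Other microRNA genes in introns of paralogous hosts can be set beside the miR-26 hairpins. Closest in layout is the family of miR-103 and miR-107, whose hairpins lie in the pantothenate kinase genes Pank1, Pank2 and Pank3. Mir103-1 and Mir103-2 make the same miR-103-3p, and miR-107-3p differs from it by G22C alone. The mature strands are shown with the seed in capitals.
miR-107-3p: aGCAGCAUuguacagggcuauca
miR-103-3p, from both Mir103-1 and Mir103-2: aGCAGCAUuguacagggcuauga

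Mir107 had 2260 and 2480 CPM in replicates 1 and 2, while Mir103-2 had 41.0 and 28.2 CPM and Mir103-1 2.55 and 1.35 CPM. Mir103-1, with 13 and 6 counts in replicates 1 and 2, did not reach the minimum used here for detection. As with miR-26, the member with a sequence of its own had the high count, and the 2 loci with a shared strand were low. Whether sharing a strand accounts for the low counts was not tested. Mir26b exceeded the sum of both Mir26a hairpins by a log2 ratio of 9.10 ± 0.25, and Mir107 exceeded the sum of both Mir103 hairpins by 6.04 ± 0.49 (SD, n = 2 each). The miR-26 ratio was larger by 3.06 ± 0.74 on the log2 scale (SD, n = 2). This last comparison was chosen after the values were seen, so the 2 SD rule cannot judge it. Both ratios leave out reads that fit several places.

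The other hairpins of the list varied widely in level. Mir128-1 in R3hdm1 and Mir128-2 in Arpp21 share miR-128-3p and had 2666 ± 250 CPM and 1393 ± 198 CPM (SD, n = 2 each). Mir218-1 in Slit2 and Mir218-2 in Slit3 share miR-218-5p and had 29.4 ± 2.56 CPM and 117 ± 24.9 CPM. Mir204 in Trpm3 and Mir211 in Trpm1 share no mature strand, and they had 3588 ± 682 CPM and 5.83 ± 0.635 CPM. The part of shared strands in the level of any hairpin was not tested. Of these 9 hairpins, 8 were tested between the libraries. Mir103-2 and Mir218-2 were higher in replicate 1, and 4 were higher in replicate 2, by the exact binomial test that 46.4% of all genes passed in either direction. None of the 6 passed either edgeR exact test. The list had a median log2 ratio of -0.04 against 0.003 over all 401 genes tested.

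**Figure D5:**
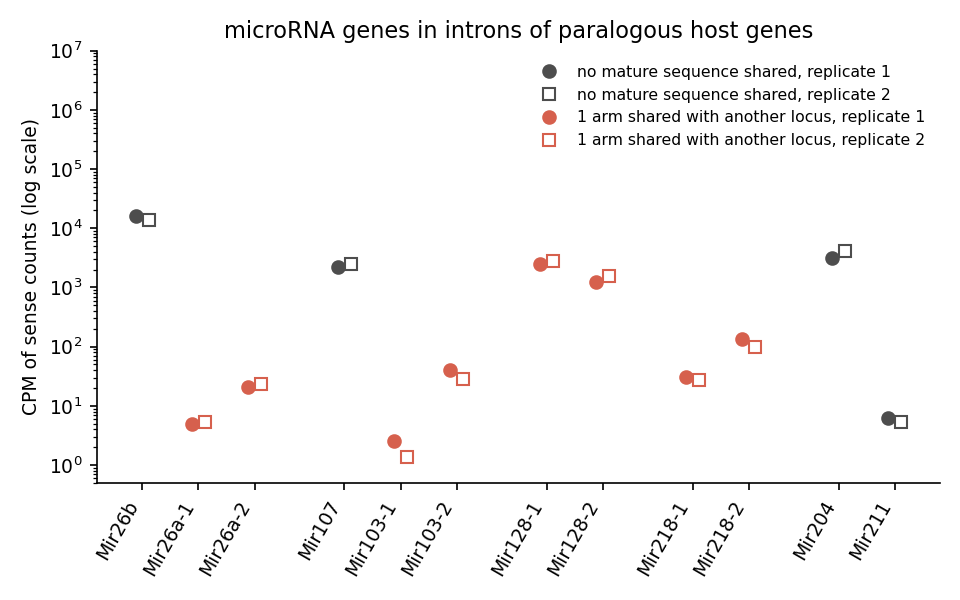
CPM on a log scale in replicate 1 (filled) and replicate 2 (open) for hairpins in paralogous hosts, in red where 1 mature arm is shared with another locus and in grey where none is. The Mir26a and Mir103 hairpins lie at or below 41.0 CPM, under Mir26b and Mir107, while Mir128-1 and Mir128-2 lie at 1253 CPM or above.

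Over all genes counted, 916 had an entry in the RefSeq sequence table. Of these, 53 shared 1 mature arm with another locus, as the Mir26a hairpins do, 34 shared every mature strand and 829 shared none. Among genes that shared 1 arm, 38 (71.7%) were detected, and the detected genes had a median of 170 CPM. Among genes that shared every strand, 7 (20.6%) were detected, with a median of 168 CPM over these. Among genes that shared none, 301 (36.3%) were detected, with a median of 155 CPM over these. Over all genes of a class, detected or not, the medians were 39.9, 0 and 0.645 CPM in the same order. Mir26a-2 stood at position 30 and Mir26a-1 at position 34 of the 53, which ran from Mir181a-1 at 4192 CPM to genes with 0 counts.

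MicroRNAs known as repressed by REST, or as acting on REST or its cofactors, gave 11 hairpins with counts of their own. The cofactors include the CTDSP phosphatases, and Mir9-1 was not analysed here. The 11 hairpins held 0.220% ± 0.00705 of the sense counts (SD, n = 2), against 1.499% for the miR-26 hairpins. Both shares leave out reads that fit several places, so they compare assigned counts and not the amounts of the mature strands. Mir132, which REST represses, led with 1259 and 1361 CPM in replicates 1 and 2, followed by Mir9-3 with 485 and 467 CPM. Mir29a had 170 and 180 CPM, Mir29c 157 and 161 CPM, and Mir212 68.3 and 73.3 CPM. Mir29b-1, Mir29b-2, Mir9-2 and the 3 Mir124a hairpins had under 5 CPM in each library. Of 8 members tested, Mir132 was higher in replicate 2 and 0 were higher in replicate 1 by the exact binomial test, and 0 passed either edgeR exact test. Over all 401 genes the binomial test called 88 higher in replicate 2 and 98 higher in replicate 1. At an unadjusted p under 0.05 the binomial test gave Mir132 and Mir29a. Every mature strand of Mir9-2 and Mir9-3 is shared between loci. Mir9-3 had 2474 and 2082 counts in replicates 1 and 2, and Mir9-2 had 4 and 5.

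The host genes were searched for the 7 letters TACTTGA, which pair with the miR-26 seed, in the sense strand of the longest annotated 3′ untranslated region of each gene. The letters occurred 0 times in the 1701 bases of Ctdsp1 and 0 times in the 3349 bases of Ctdspl, and once in the 3489 bases of Ctdsp2, host of Mir26a-2. The match starts at base 1080 of that region and is shown in capitals within chr10:126997552-126997581 on the plus strand (GENCODE M21, mm10).
Ctdsp2: ccaagtgttgctctTACTTGAtttgccaaa

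Such a match is a description of the letters and not a site of action. It occurred in 9.68% of 20999 genes, and in 22.9% of 945 genes with a 3′ untranslated region within 10% of the length in Ctdsp2. For the lengths in Ctdsp1 and Ctdspl, it occurred in 11.1% of 1431 genes and 22.9% of 998 genes. Other forms of seed match were not searched for.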

How the data were processed

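Small RNA was sequenced from 2 pools of embryonic hindbrain, which form 1 group. The authors deposited raw counts of reads for each gene; a text file with each sample names mm10 and GENCODE M4. Aligner and counter remain not given in the sources used here. Files hold 3 count columns, for both strands together and for each strand. The third column, which had the larger total of the strands, was taken as sense, and summary lines stayed out of totals. Of 1973 identifiers, 1894 matched GENCODE M21 without version.

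CPM is a gene's count per 1000000 sense counts. Intervals are exact binomial (95%). Libraries were compared with an exact binomial test on TMM-scaled totals, adjusted by Benjamini-Hochberg at 0.05, since 1 library against 1 leaves no degrees of freedom for a quasi-likelihood test. In simulated counts with counting noise only, the test called 0.508% of 197 unchanged genes and 69.7% of 66 genes set 1.25-fold apart. Spread beyond counting noise, which the test does not allow for, was not simulated. The p-values of the test measure only the difference of 2 libraries. Sequences came from RefSeq (GRCm38.p6), matched by symbol, and 3 of 3 members matched. Hairpins were aligned globally with match 1, mismatch -1 and gap -2. The members and lists were chosen with earlier results of these data known. Named genes are the members, their 2 neighbours in level on each side, and both lists in full. Mir6932, Mir7039 and Mir181a-1 were named after their entries or values were seen. Alternatives were unstranded counts, other totals and scalings (edgeR, DESeq2), a pseudocount, no count minimum, edgeR exact tests, each replicate alone and, added later, division by hairpin length. R 4.3.3, edgeR 4.0.16, DESeq2 1.42.0, Python 3.11.15, scipy 1.17.1 and RNAfold 2.7.2 were used.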

Additional observations from a re-analysis of the deposited data

Results flagged for a closer look

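Multimapping reads lie outside the gene counts and were not analysed by gene. They made up 34.5% of all reads in replicate 1 and 35.1% in replicate 2. miR-26a-5p is a strand that fits both Mir26a loci, and its share of these reads was not tested.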

How the results depend on the processing

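Of 66 values recomputed under an alternative, 54 counted as kept, 10 moved and 2 lost their call. A kept value held its direction and its side of the threshold, or moved by less than the spread between replicates. None of the 66 changed sign, though the levels, shares and numbers of genes among them are positive and could not. The 54 include values that could not have counted as moved. With 2 libraries, the value of each replicate alone always lies closer to the mean than the SD. The ratios between members could not change on unstranded counts, because no member had a read on the opposite strand. The lost call was that of Mir26b between the libraries, with log2 ratios of 0.16 in both edgeR exact tests. These tests, which allow for more than counting noise, called 7 and 3 genes, against 186. With multimapping reads in the total, Mir26b had 8526 CPM, Mir26a-1 2.93 CPM, Mir26a-2 12.6 CPM and the family 0.854% of counts. Without the most abundant gene in the total the values were 18155 CPM, 6.25 CPM, 26.8 CPM and 1.82%. Each replicate alone gave levels of 13818 to 16099 CPM for Mir26b, 4.90 to 5.38 CPM for Mir26a-1 and 21.0 to 23.1 CPM for Mir26a-2, and log2 ratios of 11.33 to 11.68, 9.23 to 9.58 and -2.10 to -2.10. The depth of 24 and 25 counts limits what can be said of Mir26a-1. No paired analysis was possible because the series has 1 group.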
